A study of Mus musculus with 4 samples.

Results

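The 8 genes described here, Smpdl3a, Rnf145, Eepd1, Arl4c, Lpl, Apoe, Pltp and Ttc39b, have been reported as targets or partners of the liver X receptors (LXRs) in macrophages, liver or other cells and are studied less often than the ABC sterol transporters. They were chosen by name, out of 30284 genes with matched transcripts, and the question was which of them respond to an LXR agonist in gut epithelium. Poly-A RNA had been sequenced from small-intestinal organoids, which are epithelial cultures grown in Matrigel from isolated crypts. The cultures received GW3965, a synthetic LXR agonist, at 2 µM for 6 h, or the vehicle DMSO alone for 6 h. Crypts came from 2 male C57BL/6J mice, labelled as 9 weeks old, and each mouse gave 1 culture per treatment, so there were 2 GW3965 libraries and 2 DMSO libraries. The labels name no transgene or mutation. Their age entry refers to the start of DSS, a colitis agent, but none of the protocols applies DSS to these cultures.

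LXRα and LXRβ are nuclear receptors that bind oxidised sterols, pair with a retinoid X receptor and sit on DNA at direct repeats of a hexamer separated by 4 bases. Their targets export sterols, remodel lipoproteins and drive fatty acid synthesis. In the intestine the receptors are best known for raising the sterol transporters of enterocytes, while several of the genes below were described in macrophages, where they serve cholesterol efflux.

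The libraries held 16572359 (GW3965, mouse 1), 19486547 (GW3965, mouse 2), 19014131 (DMSO, mouse 1) and 19360706 (DMSO, mouse 2) estimated counts. In the GW3965 culture of mouse 1, 14.01% of gene counts were mitochondrial, against 7.60 to 9.43% in the other 3, and on the leading principal component it was the farthest out. The organoid label held, since all 8 epithelial and all 8 small-intestinal markers were expressed, and Gata4 had 212 and 321 CPM in the GW3965 cultures and 325 and 274 CPM in the DMSO cultures. Colon is named in the labels' RNA extraction text, whereas the 6 colon markers summed to 29.6 and 33.8 CPM in the GW3965 cultures and to 31.2 and 33.4 CPM in the DMSO cultures, and Hoxb13 was near 0 in all 4. CPM here are counts divided by library size, with TMM normalisation factors. The response itself was present in both mice, since Abca1 had 42.8 and 60.4 CPM in the GW3965 cultures and 0.462 and 1.75 CPM in the DMSO cultures.

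None of the listed genes passed the test over all genes. The threshold was a p of 0.05 after Benjamini-Hochberg adjustment in edgeR's quasi-likelihood test. There, 0 of the 7 members expressed enough to be tested were called, beside 8 of 13602 genes in all (0.0588%), each of them higher with GW3965. With the mouse as a block the test also called 0 of 7, beside 0.353% of all genes. DESeq2 and limma-voom likewise called 0 of 7, beside 20 genes in all with each. At an unadjusted p under 0.05, 1 member was higher and 0 were lower, beside 0.669% of all genes that were higher and 1.05% in either direction, and that member was Rnf145. The 8th gene, Pltp, was too low to be tested.

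Among the 7 tested members, 6 had a positive log2 fold change, beside 6794 of 13602 genes in all. These 6 were positive in both mice as differences of log2 (CPM + 0.5), beside 16.3% of all genes. Some of the differences were close to 0, with 0.003 and 0.026 for Smpdl3a and 0.029 for Ttc39b in mouse 2. The log2 fold changes of Smpdl3a and Lpl changed sign when 1 library was left out. Both GW3965 libraries lay above both DMSO libraries for 4 members (Rnf145, Arl4c, Apoe and Ttc39b), beside 9.28% of all genes. They lay below both for 1 member (Eepd1), beside 9.18% of all genes. Over the 7 members the median log2 fold change was 0.31, and it was 0.00 over all genes tested. The members' median was 0.34 in mouse 1 and 0.12 in mouse 2.

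**Figure D1:**
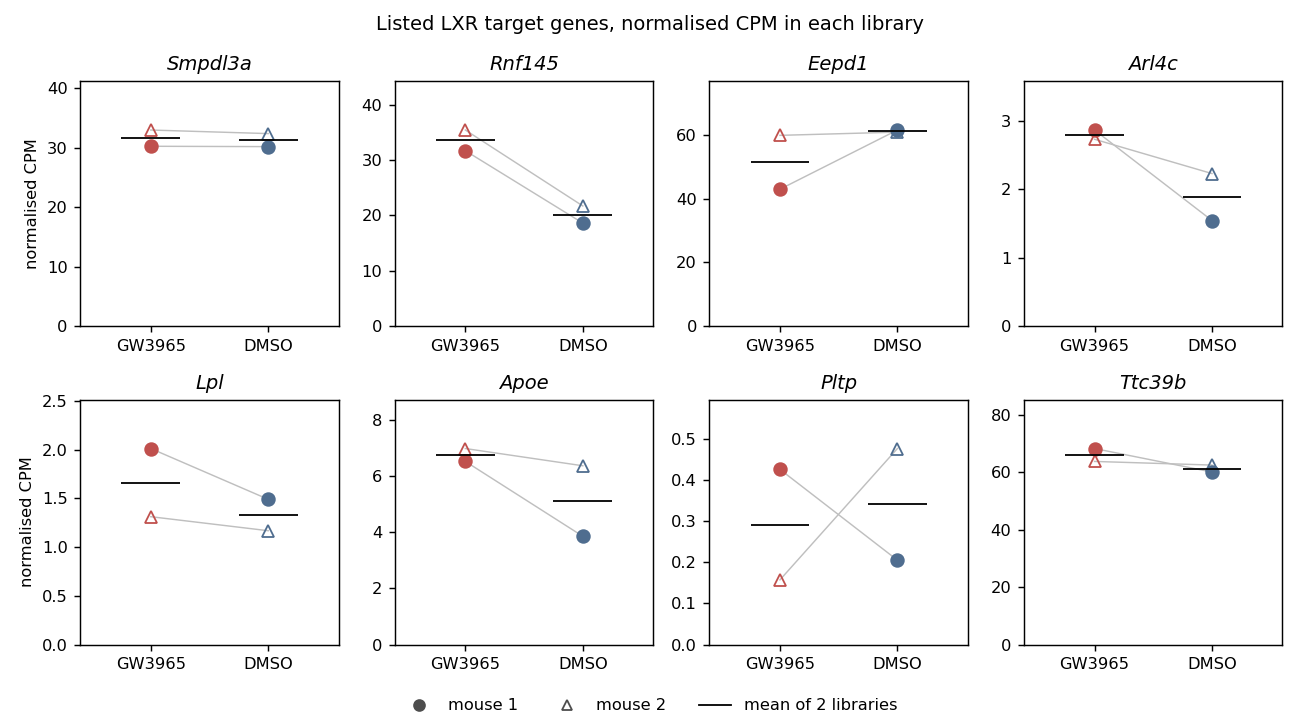
Normalised CPM (y axes, each from 0) of the 8 listed genes in the GW3965 and DMSO cultures; filled circles are mouse 1, open triangles mouse 2, grey lines join the cultures of 1 mouse and black bars are means of 2 libraries. Rnf145 lay at 31.7 and 35.4 CPM with GW3965 and at 18.6 and 21.7 CPM with DMSO, while Smpdl3a and Ttc39b stayed within a narrow band.

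Levels of different genes were compared in TPM, which corrects for transcript length. In the DMSO cultures Ttc39b (25.7 ± 0.283 TPM, mean ± SD, n = 2), Eepd1 (25.5 ± 1.34 TPM) and Smpdl3a (24.4 ± 2.32 TPM) stood highest and did not differ beyond their spread. Rnf145 (6.44 ± 0.588 TPM) and Apoe (6.20 ± 1.95 TPM) followed, and their libraries overlapped as well. Lpl (0.560 ± 0.107 TPM), Arl4c (0.518 ± 0.113 TPM) and Pltp (0.347 ± 0.158 TPM) were all under 1 TPM. The Arl4c libraries overlapped those of Lpl and of Pltp, while both Lpl libraries lay above both Pltp libraries. Over all 4 libraries, Ttc39b ranked 3881 and Pltp ranked 14688 of 30284 genes by TPM. Thus 5 of the listed genes were expressed at 6 TPM or more and 3 were under 1 TPM.

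Rnf145 encodes a ubiquitin ligase of the endoplasmic reticulum that acts on the sterol-sensing machinery, in mouse liver on the SREBP escort SCAP. Its estimated counts were 520 and 675 in the GW3965 cultures of mouse 1 and mouse 2, against 362 and 409 in the DMSO cultures. In CPM this was 31.7 and 35.4 with GW3965, against 18.6 and 21.7 with DMSO. Both treated cultures lay above both vehicle cultures, with a gap wider than the spread within either group. The means were 33.5 ± 2.64 CPM with GW3965 and 20.1 ± 2.19 CPM with DMSO (SD, n = 2 each), 1.67-fold higher with GW3965. The log2 fold change was 0.74 ± 0.19 (SE), with a 95% interval of 0.31 to 1.16, and it was nearly equal in the mice, at 0.75 in mouse 1 and 0.70 in mouse 2.

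In edgeR's quasi-likelihood test, Rnf145 had an unadjusted p of 0.00338, a smaller p than all but 32 of 13602 genes, and an adjusted p of 0.9999. Its adjusted p was 0.299 with the mouse as a block. When the GW3965 library of mouse 1, the one with the high mitochondrial share, was dropped, the log2 fold change was 0.81. Dropping the GW3965 library of mouse 2 gave 0.65, and dropping a DMSO library gave 0.63 (mouse 1) or 0.85 (mouse 2). Each of these fits assumes for the lone library of its treatment the spread of the others. The authors' deposited table of log2 CPM gives the same direction, with differences of 0.51 in mouse 1 and 0.65 in mouse 2. In size, the smallest log2 fold change among the 8 called genes was 2.00, and 0.92 among the 48 called with the mouse as a block, so a change of the size of Rnf145's lay under every call of both fits.

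Rnf145 lies on chromosome 11 (44518964 to 44565520, plus strand, GRCm38). Most of its reads fell on the coding transcript Rnf145-201, which had 6.85 and 9.87 TPM with GW3965 and 5.23 and 5.67 TPM with DMSO. A second coding transcript, Rnf145-202, which starts farther downstream at 44519442, had 1.35 and 1.09 TPM with GW3965 and 0.573 and 0.688 TPM with DMSO. For both transcripts the GW3965 cultures lay above the DMSO cultures. The log2 fold change was 0.68 ± 0.23 for Rnf145-201 and 1.03 ± 0.43 for Rnf145-202, each with an adjusted p of 1 in edgeR's test over 32357 transcripts. That test called 0 transcripts of any gene, with or without the block. At an unadjusted p under 0.05, edgeR gave 1 of the 15 tested transcripts of the listed genes (Rnf145-201), beside 2.61% of all transcripts. With the mouse as a block it gave 0 of 15, beside 2.06% of all, and Rnf145-201 had an unadjusted p of 0.0584.

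The windows around annotated start sites (250 bases before to 50 after, RefSeq, GRCm38.p6) were searched for LXR-type repeats. There the listed genes could be compared with Abca1 and Srebf1, which were strongly raised. Windows of the other called genes were not set beside them. The perfect repeat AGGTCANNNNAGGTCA, on either strand and with up to 2 mismatches in its 12 defined letters, occurred in none of the 10 windows found for 6 listed genes, nor in those of Abca1 and Srebf1, and in 3.02% of 32851 windows. A second pattern, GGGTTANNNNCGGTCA, was then taken from the letters of the Abca1 and Srebf1 windows, where such sites are well known. Searched in the same way, it occurred in 0.995% of all windows and in 1 of the 10 windows of the listed genes, the most downstream start of Rnf145. The Abca1 and Srebf1 matches are given by that choice and serve as the standard for the Rnf145 match. In the sequences, printed 5′ to 3′ on the strand of the gene, capitals mark the matches, and each is shown so that the Rnf145 letters can be set beside those of genes that passed the test.
Rnf145, start at 44520289, chr11:44520039-44520338, plus strand: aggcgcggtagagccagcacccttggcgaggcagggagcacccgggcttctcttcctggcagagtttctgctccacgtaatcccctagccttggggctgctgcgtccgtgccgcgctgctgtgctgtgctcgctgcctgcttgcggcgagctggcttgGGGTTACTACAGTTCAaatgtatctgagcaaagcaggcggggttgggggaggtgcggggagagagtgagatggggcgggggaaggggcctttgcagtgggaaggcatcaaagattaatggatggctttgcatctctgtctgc
Rnf145, start at 44518956, chr11:44518706-44519005, plus strand: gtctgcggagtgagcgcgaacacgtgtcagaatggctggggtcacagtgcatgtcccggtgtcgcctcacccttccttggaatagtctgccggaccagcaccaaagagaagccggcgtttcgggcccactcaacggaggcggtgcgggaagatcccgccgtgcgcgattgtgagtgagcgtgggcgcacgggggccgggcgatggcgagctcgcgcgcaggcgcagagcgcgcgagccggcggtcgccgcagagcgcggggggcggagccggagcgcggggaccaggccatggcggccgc
Abca1, start at 53159895, chr4:53159846-53160145, minus strand: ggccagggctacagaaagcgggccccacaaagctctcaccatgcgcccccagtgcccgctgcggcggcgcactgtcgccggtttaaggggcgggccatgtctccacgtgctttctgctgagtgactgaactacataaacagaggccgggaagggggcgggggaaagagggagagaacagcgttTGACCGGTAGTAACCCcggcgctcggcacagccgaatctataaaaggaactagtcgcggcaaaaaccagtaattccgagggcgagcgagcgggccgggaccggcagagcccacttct
Srebf1, start at 60210471, chr11:60210422-60210721, minus strand: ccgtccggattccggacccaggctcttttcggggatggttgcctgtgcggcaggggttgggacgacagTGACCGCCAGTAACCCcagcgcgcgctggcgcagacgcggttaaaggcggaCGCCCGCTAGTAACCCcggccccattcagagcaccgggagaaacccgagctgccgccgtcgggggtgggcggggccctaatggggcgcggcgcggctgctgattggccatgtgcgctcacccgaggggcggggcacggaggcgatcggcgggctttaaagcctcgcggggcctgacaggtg

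The Rnf145 match, GGGTTActacAGTTCA, had 2 mismatches to the pattern and lay 92 to 77 bases before its start site, at 44520197 to 44520212. This position is in the first intron of Rnf145-201, 1233 bases after that transcript's start, and also in the first intron of Rnf145-202. The exact matches were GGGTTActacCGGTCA in Abca1 and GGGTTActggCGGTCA in Srebf1, both on the strand opposite to the gene. The Rnf145 and Abca1 sites had the same 6 letters in the first hexamer and the same 4 letters in the spacer. Transcript Rnf145-203, which starts just past the match at 44520305, had 0 and 2 counts with GW3965 and 2 and 0 counts with DMSO, so few of the gene's counts were assigned to it. No match to either pattern was found in the windows of Eepd1, Arl4c, Apoe, Pltp or Ttc39b, which says only that these letters are not in these windows. The half-site AGGTCA, present in 16.3% of all windows, was in none of the 10.

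Ttc39b encodes a tetratricopeptide repeat protein that in mice lowers the amount of LXR protein by promoting its ubiquitination, in liver and enterocytes. It had 68.3 and 63.8 CPM in the GW3965 cultures, against 60.1 and 62.6 CPM in the DMSO cultures. The groups did not overlap, but the gap was smaller than the spread within either group. Its log2 fold change was 0.11 ± 0.18 with an interval of -0.29 to 0.51, so a rise above 1.42-fold or a fall below 0.816-fold lay outside the interval (adjusted p = 0.9999, edgeR). The gene lies on chromosome 4 (83220300 to 83324255, minus strand). Most of its TPM was spread over 4 transcripts, of which the coding Ttc39b-201 had 9.60 and 8.58 TPM with GW3965 and 6.87 and 7.09 TPM with DMSO, while Ttc39b-202 had 5.97 and 7.71 TPM with GW3965 and 8.65 and 8.06 TPM with DMSO. The adjusted p was 1 for each.

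Smpdl3a encodes a secreted phosphodiesterase related to acid sphingomyelinase and was reported as an LXR target in human macrophages. It had 30.2 and 32.9 CPM in the GW3965 cultures, against 30.2 and 32.3 CPM in the DMSO cultures. The cultures of each mouse were close to identical, with log2 differences of 0.00 and 0.03. Over both mice the log2 fold change was 0.02 ± 0.18 (interval -0.39 to 0.42, at most 1.34-fold higher, adjusted p = 0.9999, edgeR). It lies on chromosome 10 (57794335 to 57811830, plus strand). Summed TPM ran the other way, at 19.4 and 21.3 with GW3965 and 22.7 and 26.0 with DMSO. The short coding transcript Smpdl3a-203, of 376 bases, held 3 and 0 counts with GW3965 and 12 and 25 counts with DMSO, which weigh more per length. The main transcript Smpdl3a-201 had 13.6 and 19.3 TPM with GW3965 and 17.2 and 17.1 TPM with DMSO.

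**Figure D2:**
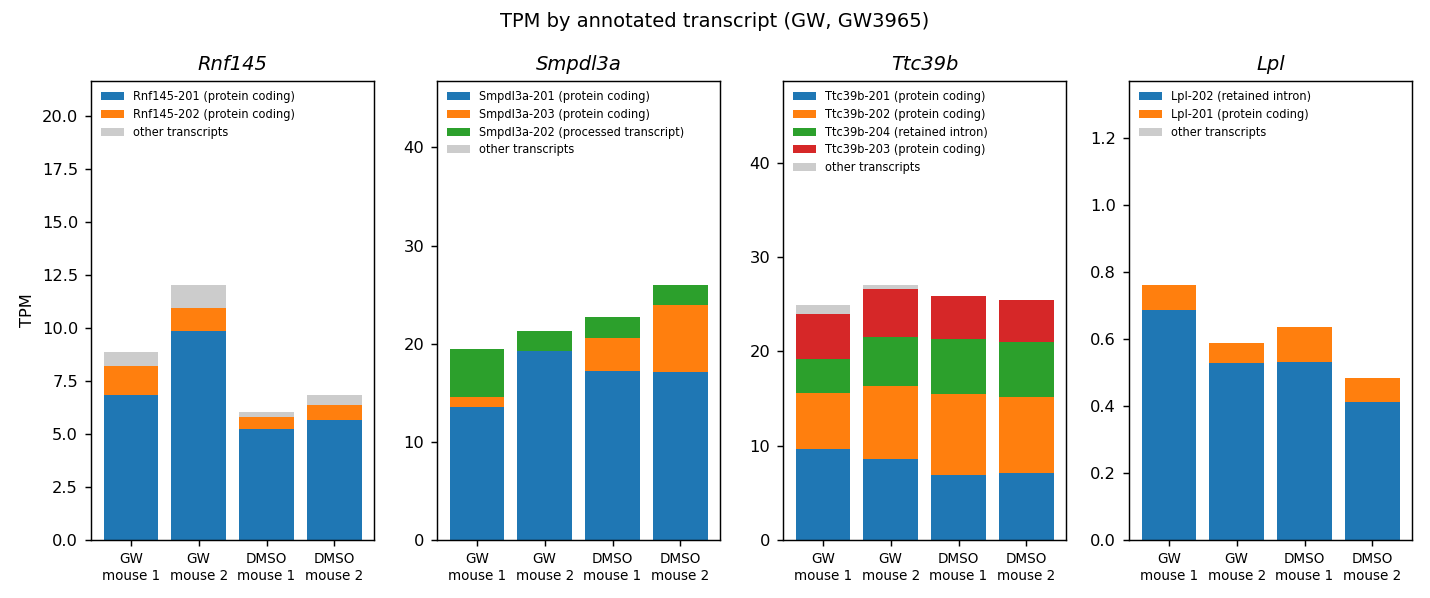
TPM (y axes, from 0) by annotated transcript of Rnf145, Smpdl3a, Ttc39b and Lpl in each library, for transcripts holding at least 10% of the gene's TPM in any library, with the rest in grey. Rnf145-201 and Rnf145-202 were both higher in the GW3965 libraries, and Lpl signal was mostly on a transcript with a retained intron.

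Eepd1 encodes a membrane-bound protein with an endonuclease/exonuclease/phosphatase domain that was reported to support cholesterol efflux through ABCA1 in macrophages. It had 42.9 and 59.9 CPM in the GW3965 cultures, against 61.5 and 60.9 CPM in the DMSO cultures. The GW3965 library of mouse 1 was low, and the other 3 libraries lay within 2 CPM of each other. Eepd1 had a log2 fold change of -0.25 ± 0.21 (interval -0.71 to 0.21, adjusted p = 0.9999, edgeR), with -0.51 in mouse 1 and -0.02 in mouse 2. In the authors' deposited log2 CPM the differences were -0.23 in mouse 1 and -0.07 in mouse 2. The log2 fold change was also read with 1 library left out. With the GW3965 library of mouse 1 dropped it was -0.03, and with that of mouse 2 dropped it was -0.51. Epithelial markers summed to 22880 CPM in the GW3965 library of mouse 1 and to 33300 CPM in that of mouse 2. In the DMSO libraries of mouse 1 and mouse 2 they summed to 30700 and 31690 CPM. The sum of small-intestinal markers went the other way, at 6726 CPM in the GW3965 library of mouse 1 and 5794 CPM in that of mouse 2. Their DMSO sums were 6192 and 5593 CPM. The members of this list were not alike in mouse 1. Apoa4 had 1575 CPM with GW3965 and 1113 CPM with DMSO, and Fabp1 had 804 and 629 CPM. Gata4 instead fell, at 212 CPM with GW3965 and 325 CPM with DMSO. The part of either list in the Eepd1 value was not tested. Eepd1 lies on chromosome 9 (25481547 to 25604110, plus strand), and 98.3% or more of its TPM in each library was on Eepd1-201.

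Arl4c encodes a small GTPase of the ARF-like family that was reported to promote cholesterol efflux downstream of LXR. It had 47 and 52 counts in the GW3965 cultures, against 30 and 42 in the DMSO cultures. In CPM this was 2.86 and 2.73 with GW3965, against 1.54 and 2.23 with DMSO, so the groups did not overlap. The log2 fold change of 0.57 was second to that of Rnf145 among the members, but its standard error was 0.37 and its interval of -0.26 to 1.40 ran from a fold of 0.836 to 2.63 (adjusted p = 0.9999, edgeR). It was 0.72 in mouse 1 and 0.24 in mouse 2. Arl4c is also expressed in lymphocytes, and all 7 lymphocyte markers measured had higher CPM with GW3965 in mouse 1, among them the pan-leukocyte gene Ptprc at 21.9 and 11.5 CPM in the GW3965 cultures and 10.7 and 12.7 CPM in the DMSO cultures. The lymphocyte markers summed to 182 and 69.1 CPM with GW3965 and to 89.5 and 87.1 CPM with DMSO, and their part in the Arl4c value was not tested. Of 8 mesenchyme and endothelium markers, 2 were tested and both had a positive log2 fold change, Col1a1 with 0.49 ± 0.51 and Pecam1, which is also found on leukocytes, with 0.63 ± 0.24 (unadjusted p = 0.0249, adjusted p = 0.9999, edgeR). These 8 markers summed to 28.4 and 18.9 CPM with GW3965 and to 14.3 and 16.3 CPM with DMSO, with Lum and Cdh5 at 0 to 2 counts per library, and their part in the values of Arl4c, Apoe and Lpl was not tested. In bulk RNA, fewer cells of a type and less RNA per cell cannot be told apart. Without the GW3965 library of mouse 1, the log2 fold change of Arl4c was 0.53. The gene lies on chromosome 1 (88673125 to 88702221, minus strand).

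Of the listed lipoprotein genes, Lpl and Pltp were under 1 TPM and Apoe was near the level of Rnf145. Other lipoprotein genes were higher, with DMSO means of 828 TPM for Apoa4 and 95.8 TPM for Apoc3. Apoe encodes apolipoprotein E, a ligand for lipoprotein clearance and an acceptor of cellular cholesterol, and is raised by LXR in mouse macrophages and adipose tissue. It had 107 and 133 counts in the GW3965 cultures, against 75 and 120 in the DMSO cultures, or 6.52 and 6.98 CPM with GW3965 against 3.85 and 6.36 CPM with DMSO. The DMSO library of mouse 1 was low and the other 3 libraries were close together. Apoe had a log2 fold change of 0.40 ± 0.31 (interval -0.28 to 1.09, adjusted p = 0.9999, edgeR), with 0.69 in mouse 1 and 0.12 in mouse 2. Leaving out the DMSO library of mouse 1 gave 0.09, and leaving out the mouse 2 one gave 0.80. Without the GW3965 library of mouse 1, the log2 fold change was 0.45. Apoe lies on chromosome 7 (19696109 to 19699188, minus strand), and its reads were split over 9 named transcripts. The coding Apoe-209 had 39 and 68 counts with GW3965 and 25 and 50 counts with DMSO. No other transcript of the gene had more than 32 counts in any library.

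Lpl encodes lipoprotein lipase, which hydrolyses triglycerides of circulating lipoproteins and is raised by LXR in mouse liver. It had 33 and 25 counts in the GW3965 cultures, against 29 and 22 in the DMSO cultures, or 2.01 and 1.31 CPM with GW3965 against 1.49 and 1.17 CPM with DMSO. The groups overlapped, and the libraries of mouse 1 were the higher ones in both treatments. Lpl had a log2 fold change of 0.31 ± 0.44 (interval -0.66 to 1.29, adjusted p = 0.9999, edgeR), and without the GW3965 library of mouse 1 it was -0.02. Between 83.6 and 90.0% of its TPM lay on Lpl-202, a transcript with a retained intron, and the coding transcript Lpl-201 held only 5 and 4 counts with GW3965 and 7 and 5 counts with DMSO. Of the 31-base words of Lpl-202, 8.40% also occur in transcripts of other genes, so part of this signal cannot be placed with certainty. Lpl lies on chromosome 8 (68880491 to 68907448, plus strand).

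Pltp encodes the phospholipid transfer protein, which moves phospholipids between lipoproteins and is raised by LXR in mouse liver and macrophages. It had 7 and 3 counts in the GW3965 cultures, against 4 and 9 in the DMSO cultures. The exact Poisson 95% intervals of these counts, 2.81 to 14.4 and 0.619 to 8.77 with GW3965 and 1.09 to 10.2 and 4.12 to 17.1 with DMSO, all overlap and cover counting error alone. No difference in Pltp beyond counting error was seen. Pltp lies on chromosome 2 (164839518 to 164857711, minus strand) and overlaps Ctsa on the other strand. It shares 13.9% of its 31-base words with Ctsa, which had 1410 and 1767 counts with GW3965 and 1809 and 1817 counts with DMSO, and no source used here says whether the counting used strand.

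**Figure D3:**
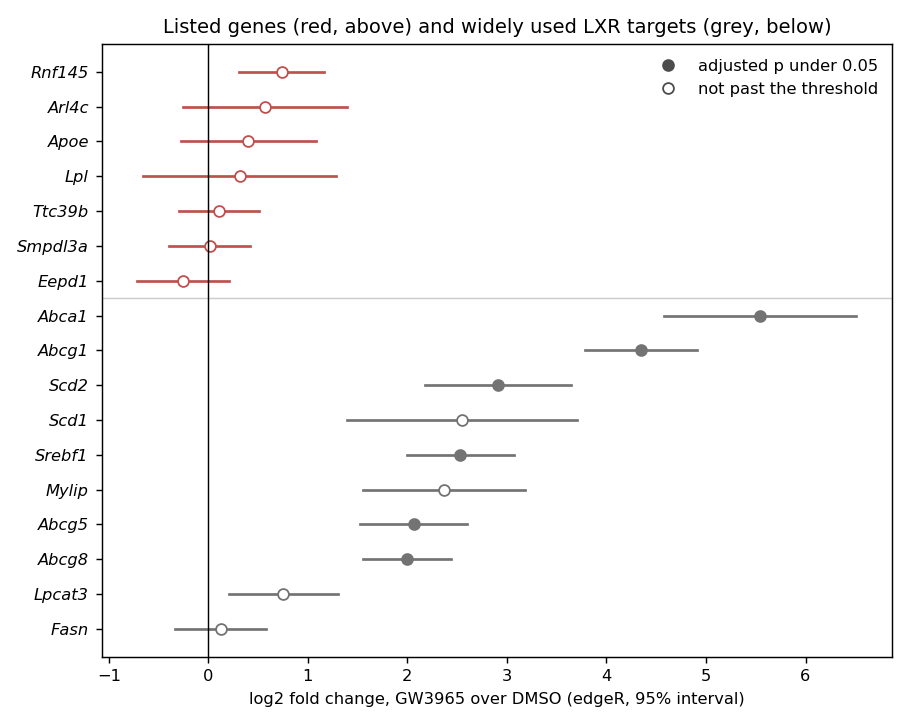
Log2 fold change of GW3965 over DMSO with its 95% interval from edgeR (x axis) for the 7 listed genes tested (red, upper rows) and 10 widely used LXR targets (grey, lower rows); filled points passed the adjusted p of 0.05. The interval of Rnf145, 0.31 to 1.16, lay above 0, and those of the other 6 listed genes held 0.

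The scale of the response was set by widely used LXR targets in the same fit. Of 10 such genes, all tested, 10 had a positive log2 fold change, with a median of 2.45. In edgeR 6 were called higher and 0 lower, beside 0.0588% of all genes called higher. With the mouse as a block 8 were called higher, beside 0.228% of all genes. Abca1, the cholesterol exporter, had a log2 fold change of 5.54 ± 0.43 (adjusted p = 0.00134, edgeR). Abcg1, another sterol exporter, had 4.35 ± 0.25 (adjusted p = 0.000157), and Srebf1, the gene of a lipogenic transcription factor, had 2.53 ± 0.24 (adjusted p = 0.00525). The upper bounds of the intervals of all 7 listed genes, 0.21 to 1.40, lay below the lower bounds of these 3 genes, which were 4.58, 3.79 and 2.00. Lpcat3, a phospholipid acyltransferase also known as an LXR target, had a log2 fold change close to that of Rnf145, 0.75 ± 0.25, and Fasn had 0.12 ± 0.21. Neither passed the test.

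**Figure D4:**
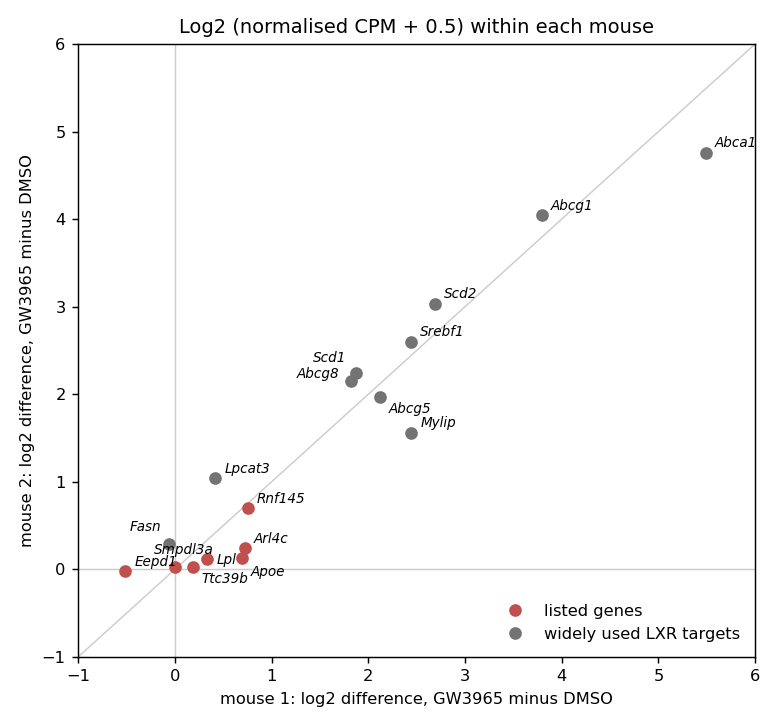
Log2 difference of GW3965 minus DMSO, on log2 (normalised CPM + 0.5), in mouse 1 (x axis) and mouse 2 (y axis) for the listed genes (red) and the widely used LXR targets (grey); the diagonal marks equal differences. Rnf145 lay near the diagonal at 0.75 and 0.70, whereas Arl4c and Apoe were farther from 0 in mouse 1.

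Other genes reported as LXR targets elsewhere were taken as a second list. Of 16 on it, 8 were expressed enough to be tested. In edgeR 0 passed with or without the block, beside 0.353% and 0.0588% of all genes. At an unadjusted p under 0.05 without the block there were 0, beside 1.05% of all genes. Their median log2 fold change was 0.14; within mouse 1 alone it was 0.30, and within mouse 2 alone -0.08. Among these 8, 1 was positive in both mice, beside 16.3% of all genes. The groups overlapped for 7, beside 11092 of 13602 genes in all, so both counts were near the share over all genes. Apoc2, an activator of lipoprotein lipase that lies near Apoe on chromosome 7, had 32.1 and 19.4 CPM in the GW3965 cultures and 19.0 and 22.5 CPM in the DMSO cultures, higher with GW3965 in mouse 1 and lower in mouse 2. Its neighbours Apoc1 and Apoc4 had 0 or 1 count in every library. Cd5l and Cyp7a1, known from macrophages and liver, had 0 counts in all 4. Of the 10 macrophage and monocyte markers, 7 were tested and 0 passed. Adgre1, C1qb and C1qc had 0 to 5 counts per library, Itgam 0 to 12, Csf1r 9 to 17 and C1qa 12 to 26. Mrc1 had 429 to 764, Cd14 136 to 176, Cd68 60 to 77 and Lyz2 34 to 53. The 10 markers summed to 44.2 and 56.8 CPM with GW3965 and to 51.1 and 57.0 CPM with DMSO.

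Relatives of the listed genes, lipase partners and receptors were read from the same fit, which called 0.0588% of all genes. In such short lists, 0 calls are near that share. Of 13 relatives, 9 were tested and 0 passed. Of these 9, 2 had a positive log2 fold change, beside 6794 of 13602 genes in all, and their median was -0.07. Rnf139, a membrane ubiquitin ligase related to Rnf145, had 34.5 and 32.7 CPM with GW3965 and 34.1 and 32.5 CPM with DMSO, a log2 fold change of 0.01 ± 0.18 with an interval of -0.39 to 0.42. That interval overlaps the one of Rnf145, and the difference between the 2 genes was not tested. Smpdl3b had -0.09 ± 0.28, Arl4a had 0.31 ± 0.22 and Ttc39a had -0.05 ± 0.20. Among 10 partners of lipoprotein lipase, 7 were tested and 0 passed. Gpihbp1, which anchors the lipase on endothelium, had 0 counts in all 4 libraries. Angptl4, a lipase inhibitor, had 32.6 and 13.2 CPM with GW3965 and 34.6 and 15.1 CPM with DMSO, so that it differed between the mice and little between treatments. The receptors were expressed, with Nr1h2 averaging 45.9 TPM with GW3965 and 46.9 TPM with DMSO, and Nr1h3 12.2 TPM with each. Of the LXR and RXR genes, 0 of 4 tested passed.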

How the data were processed

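The RNA of 4 libraries was analysed. The estimated counts and the TPM are columns of the authors' kallisto output, per the file headers, with 1 line per transcript. The submitters' processing notes name kallisto, CASAVA 1.7, FastQC and the build mm10, without an annotation release or strand setting. A deposited series table holds these counts as whole numbers (largest gap 0.5), and another the authors made is a table of log2 CPM for 8524 genes, which lists 4 of the 8 genes; no source used here gives its scaling. The labels' protocols name a stranded poly-A kit and single-end reads.

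Of 88198 transcripts, 86119 (97.6%) matched GENCODE M21 (GRCm38). Their counts were summed over 30284 genes and rounded; the rest (0.69 to 0.85% of counts) stayed out. Genes were tested with edgeR 4.0.16 (R 4.3.3; filterByExpr, TMM, quasi-likelihood, adjustment over 13602 genes), without a block; standard errors and intervals come from the F statistic. The prior degrees of freedom were 7.78, with 2 residual ones. The labels tie cultures of the same number to 1 mouse, and the test was repeated with mouse as a block (residual degrees of freedom 1, prior infinite, so that a gene's own spread does not enter its p); deviations of same-mouse libraries correlated at 0.093 across genes. With 1 culture per mouse and treatment, p-values measure the spread between these cultures. DESeq2 1.42.0 and limma 3.58.1 were alternatives. Every pair of libraries differed by more than counting noise (chi-square over its degrees of freedom, 10.5 to 77.6). The test was also run on simulated counts with the same dispersion for every gene, no mouse effect and no outlying library. That run does not show how the test performs on these libraries. Reads carry no molecular identifiers, so intervals on counts cover counting error only.

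All 8 genes are named, with other genes of fixed lists; no gene most alike in pattern is named, since the rule asked for a member past the threshold. Of 8 lymphocyte markers, 7 were found. Mesenchyme and endothelium markers (2 of 8 tested) and adipocyte and muscle markers (3 of 6) had 0 calls. The genes and lists were chosen with earlier results of these data known. Promoter windows are RefSeq's (GRCm38.p6) and were matched by symbol for 6 of the 8 genes.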

Additional observations from a re-analysis of the deposited data

How the results depend on the processing

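Of 14 alternatives, those that kept all 4 libraries called 0 of the 7 tested genes. For fits with 1 library left out, only the log2 fold changes of these genes are given, since 1 treatment then had 1 culture. For 5 of the 7 genes the sign was the same in all 14; Smpdl3a ranged from -0.05 to 0.08 and Lpl from -0.02 to 0.59 and changed sign. The log2 fold change of Rnf145 ranged from 0.63 to 0.85. Its lowest adjusted p with all 4 libraries was 0.299, in edgeR with the mouse as a block.

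The count over all genes moved from 8 to 48 with the mouse as a replicate block, 20 with DESeq2, 20 with limma-voom and 14 with no low-count filter, and it ranged from 38 to 84 when 1 library was left out. The pairing by mouse changed no call among the listed genes. The cause was not tested. With 1 library left out, the remaining culture of that treatment is taken to vary like the others, and the mice are unequally represented. Across the 14 alternatives the median log2 fold change of all genes lay between -0.01 (without the GW3965 library of mouse 1) and 0.03 (upper-quartile scaling). Depth limits Pltp, Lpl and Arl4c most, and a p that misses the threshold does not show that a gene did not respond.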

Other observations

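The exact letters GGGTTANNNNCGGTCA, chosen from the Abca1 and Srebf1 windows after these were seen, occurred in 3 of 32851 start-site windows (0.00913%). The third window belonged to Fasn, the fatty acid synthase gene, which like the other 2 is an established LXR target. Fasn had 105 and 128 CPM in the GW3965 cultures and 109 and 104 CPM in the DMSO cultures, with a log2 fold change of 0.12 ± 0.21 (adjusted p = 0.9999, edgeR), beside 5.54 for Abca1 and 2.53 for Srebf1. Windows with the same exact letters thus stood beside genes with different values at 6 h.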
